A study of Mus musculus with 165 samples.

Results

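The nuclear genes that encode subunits of the oxidative phosphorylation complexes were followed in the brain and liver of aging mice. They were taken as every row of both count tables whose symbol follows the naming of complex I (Nduf), complex II (Sdh), complex III (Uqcr and Cyc1), complex IV (Cox) or ATP synthase, called complex V here (Atp5). The symbols matched 98 rows, 12 of them pseudogenes that were left out, so that 86 genes of the 55471 rows remained. Complex I was represented by 35 genes, complex II by 4, complex III by 9, complex IV by 20 and complex V by 18. Ndufa4, Ndufa4l2 and Cox7a2l were counted with complex IV despite their names or their looser attachment. The symbol Atp5o belonged to 2 rows, 1 of which held no count in any library. A row left out as a pseudogene by its symbol, Ndufb1-ps, was read at a median of 1280 counts in brain libraries and 1353 in liver libraries.

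The electron transport chain lies in the inner membrane of mitochondria. Complexes I and II take electrons from NADH and succinate, complex III passes them to cytochrome c, complex IV hands them to oxygen, and ATP synthase uses the proton gradient that complexes I, III and IV build to make ATP. The mitochondrial genome encodes only a core of hydrophobic subunits, and the nucleus supplies the rest, so both genomes must be expressed to build the complexes. The brain and the liver both depend on the pathway, and several complex IV subunits exist as isoforms that differ between tissues.

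All mice were male, of the inbred strain C57BL/6J/Ukj, were kept for aging only and carried no treatment. The groups were mice of 3, 9, 15, 24 and 28 months, with 15, 16, 16, 17 and 18 brain libraries and 16, 16, 16, 17 and 18 liver libraries, from 83 mice. A brain and a liver library that share an age and a replicate number came from the same mouse, and for 3-month mouse 6 only the liver was at hand. Polyadenylated RNA of bulk tissue was sequenced in 3 library preparations (preps), each of which held every age in both tissues. Within a tissue each library stood for a mouse, so p-values there measure the spread between mice. Fits over both tissues entered the brain and liver of a mouse as separate libraries and ignored this pairing, unless the mouse is named as a block.

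Total counts, in units of 1e6, lay between 11.5 and 73.4 for brain libraries (median 37.6) and between 5.82 and 57.5 for liver libraries (median 32.9). Markers matched the labelled tissues. The synaptic gene Snap25 was at 966 CPM (counts per 1e6 counts of the TMM-scaled library) or more in the brain and at 40.4 CPM or less in the liver, while albumin (Alb) was at 18.5 CPM or less in the brain and at 14018 CPM or more in the liver. Summed, the set made up 0.757% to 4.29% of scaled brain counts and 0.611% to 1.36% of scaled liver counts. A filter on low counts left 83 of the genes for the brain test and 80 for that of the liver. Unless another fit is named beside it, a fold change within a tissue is a log2 difference from the edgeR quasi-likelihood test with age and prep as terms, and a gene was called at a Benjamini-Hochberg adjusted p under 0.05 over all genes of the tissue. Comparisons against 3 months share the 3-month libraries.

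A pair of brain libraries, 28 months replicate 15 and 24 months replicate 13, stood apart and touches every brain result. Their levels of long transcripts were low relative to short ones: the slope of a library's log2 CPM deviations on log2 transcript length, over genes outside the set, was -0.74 and -0.47, against -0.11 to 0.12 in the other 80 brains. The genes studied here are short, with a median transcript of 838 bases and 60.2% under 1000 bases, against 3150 bases and 4.98% for 13660 protein-coding genes expressed in the brain. The summed level of the 86 genes was 42867 CPM in replicate 15 and 21001 CPM in replicate 13. The other brains held between 7572 and 10777 CPM. Each of the pair exceeded all 80 other brains in 79 of the 83 tested genes, by a median of 5.03 and 2.67 times the other brains' median. The main brain results are therefore given with and without this pair, and the other brain values name the libraries they rest on.

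**Figure D1:**
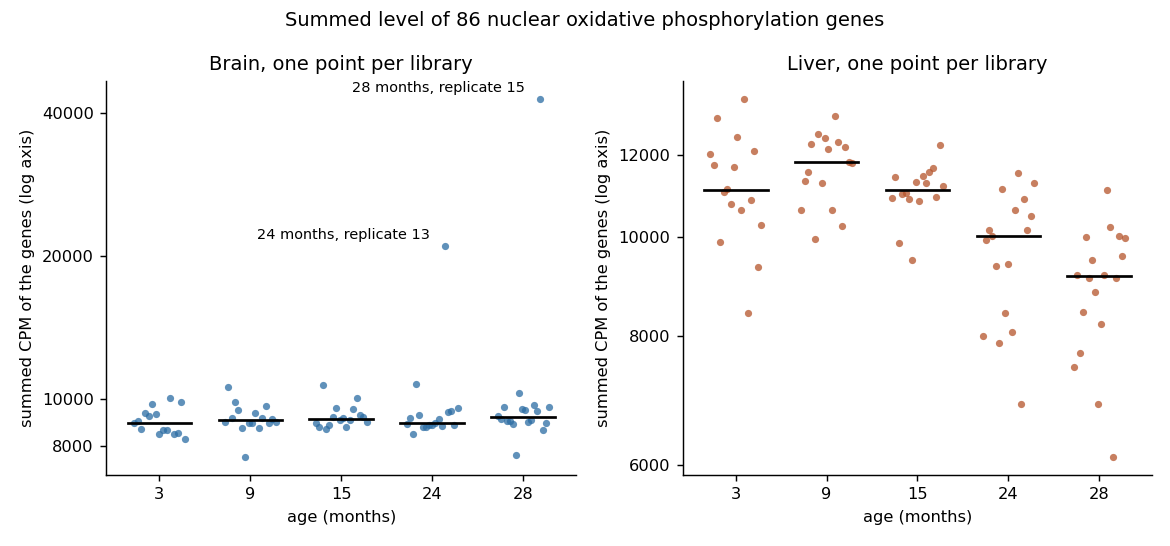
Summed CPM of the 86 nuclear oxidative phosphorylation genes in each library (points) by age in months, with the median of each age (black bar), on a log axis, brain left and liver right. The labelled brain libraries lie at 42867 and 21001 CPM, above the other brains, while the liver median is 11090 CPM in 3-month and 9149 CPM in 28-month mice.

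In the liver, the nuclear subunits of every complex fell with age. From 3 to 28 months, 72 of the 80 tested genes were lower and 0 were higher, where 30.0% of all 15579 tested genes were lower and 61.9% were called in either direction. The median change of the 80 genes was -0.32, against 0.01 for all genes tested. At an unadjusted p under 0.05, edgeR and DESeq2 each gave 0 higher members, and voom with quality weights gave 1. The falls included 33 of 35 genes of complex I, 4 of 4 of complex II, 9 of 9 of complex III, 11 of 15 of complex IV and 15 of 17 of complex V. The medians of the complexes lay between -0.38 (complex III) and -0.30 (complex II). In bulk tissue, fewer cells of a type and less RNA per cell cannot be told apart.

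The fall was seen in most mice and was moderate in size. The summed level of the 86 genes was 8419 CPM in the lowest, 11090 in the median and 13612 in the highest liver at 3 months. At 28 months the same 3 values were 6106, 9149 and 11113 CPM. Of the 18 livers of 28 months, 17 lay below the 3-month median and 5 below the lowest 3-month liver, so the groups overlapped. In 31 of the 80 tested genes all 18 livers of 28 months lay below the 3-month median, and in 72 genes at least 15 did. The same counts over all tested genes are not given here, so they do not show what is particular to the set. The sums of the single complexes moved alike: 17 livers of 28 months lay below the 3-month median for complexes I and IV, and 18 for complexes II, III and V.

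Complex I takes electrons from NADH. Ndufs1, its largest iron-sulfur subunit, was at 97.9, 117 and 133 CPM in the lowest, median and highest liver at 3 months and at 62.4, 87.7 and 102 CPM at 28 months. All 18 old livers lay below the young median, and 15 lay below every young liver. The fold change was -0.45 (SE 0.06, edgeR adjusted p = 3.05e-10), a fall by 26.7%. The accessory subunit Ndufb3 fell most in this complex. It went from 30.7, 41.4 and 51.5 CPM to 19.0, 27.5 and 34.6 CPM, with 14 of 18 old livers under the lowest young liver (-0.55, SE 0.07, adjusted p = 1.19e-10). Ndufv1, which binds NADH, fell by 0.38 (SE 0.07) on the log2 scale. Only Ndufc2 and Ndufa7 of the complex were not called. Ndufa7 was at 45.3, 67.7 and 89.6 CPM at 3 months and at 49.2, 70.6 and 80.8 CPM at 28 months, a change of -0.00 (SE 0.07, adjusted p = 0.985), so old and young livers covered the same range. Ndufc2 was at -0.13 (SE 0.07, adjusted p = 0.0982).

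Complex II, succinate dehydrogenase, is also an enzyme of the citric acid cycle and is encoded by nuclear genes alone. Its flavoprotein Sdha was at 394, 513 and 571 CPM in the lowest, median and highest liver at 3 months. It was at 491, 526 and 580 CPM at 9 months and at 434, 492 and 545 CPM at 15 months. The 24-month livers held 277, 421 and 485 CPM and the 28-month livers 261, 369 and 426 CPM. The first 3 ages thus overlapped widely, while all 18 livers of 28 months lay below the 3-month median and 14 below the lowest 3-month liver. The fall to 28 months was -0.45 (SE 0.06, adjusted p = 6.67e-10). The iron-sulfur subunit Sdhb changed by -0.31 (SE 0.08), and the membrane anchors Sdhd and Sdhc by -0.29 (SE 0.07) and -0.20 (SE 0.06). All 4 were called lower.

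Complex III passes electrons from ubiquinol to cytochrome c, and all 9 of its genes fell, from -0.48 (Cyc1) to -0.27 (Uqcrb). The gene Cyc1, cytochrome c1, was at 153, 228 and 289 CPM in the lowest, median and highest liver at 3 months. At 28 months it was at 107, 168 and 191 CPM. Every old liver was below the young median, although only 5 were below the lowest young liver. The Rieske iron-sulfur protein Uqcrfs1 fell by 0.38 (SE 0.07, adjusted p = 1.94e-06) and the core protein Uqcrc1 by 0.41 (SE 0.07, adjusted p = 1.54e-07) on the log2 scale.

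In complex IV, cytochrome c oxidase, Cox7a2 showed the largest fall. This gene encodes the form of subunit VIIa found in most tissues. The liver levels were 61.8, 81.2 and 102 CPM at 3 months, 48.5, 71.3 and 91.5 CPM at 24 months and 40.2, 56.8 and 71.9 CPM at 28 months. Of the 28-month livers, 15 of 18 lay below every 3-month liver. The change from 3 to 28 months was -0.57 (SE 0.07, adjusted p = 9.68e-11), and that from 24 to 28 months was -0.33 (SE 0.07, adjusted p = 0.000304). Cox6a1, the widely expressed form of subunit VIa, fell by 0.47 (SE 0.07), Ndufa4, a subunit first assigned to complex I, by 0.45 (SE 0.07), and Cox6b1, which faces the intermembrane space, by 0.39 (SE 0.06). Cox4i1, the main form of subunit IV, went from 224, 325 and 396 CPM to 173, 283 and 348 CPM. Its groups overlapped more, with 3 of 18 old livers below the lowest young liver, and the change was -0.24 (SE 0.07, adjusted p = 0.00127).

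The 4 complex IV genes that were tested in the liver and not called were Cox6b2, Cox7a1, Ndufa4l2 and Cox7a2l. The first 3 are isoforms read at low levels in this tissue, at 3 months at 0.0639 to 0.936 CPM, 0.750 to 1.71 CPM and 0.955 to 2.46 CPM, where the precision is limited by few counts. Cox7a2l is known as a factor of supercomplexes, assemblies of several respiratory complexes, and what its protein does in this strain was not examined. The gene was at 70.5, 89.5 and 104 CPM at 3 months and at 69.9, 93.4 and 135 CPM at 28 months, with 5 old livers above every young liver (0.11, SE 0.06, adjusted p = 0.0889).

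ATP synthase makes ATP in its F1 head, of which Atp5a1, Atp5b and Atp5c1 are the alpha, beta and gamma subunits. Atp5b, which carries the catalytic sites, was at 966, 1218 and 1441 CPM in the lowest, median and highest liver at 3 months. It was at 642, 1006 and 1183 CPM at 28 months, and all 18 old livers lay below the young median. The fall was -0.32 (SE 0.06, adjusted p = 2.02e-06). Atp5a1 fell by 0.35 (SE 0.06) and Atp5c1 by 0.29 (SE 0.06) on the log2 scale. The largest fall of the complex was in Atp5k, subunit e of the membrane part, from 69.0, 84.3 and 112 CPM to 41.1, 62.4 and 79.9 CPM (-0.44, SE 0.07, adjusted p = 6.3e-07). The proton-carrying c subunit is encoded by 3 genes that give the same mature protein. Atp5g1 fell by 0.36 (SE 0.07, adjusted p = 7.85e-06) and Atp5g3 by 0.34 (SE 0.08, adjusted p = 8.05e-05), while Atp5g2 was not called (-0.10, SE 0.06, adjusted p = 0.148). The difference between the c-subunit genes was itself not tested. Atp5s, named for a coupling factor of the synthase, was also not called (0.14, SE 0.08, adjusted p = 0.144). With voom and quality weights Atp5s was called higher (0.25, SE 0.08, adjusted p = 0.00424), as in further fits given below.

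**Figure D2:**
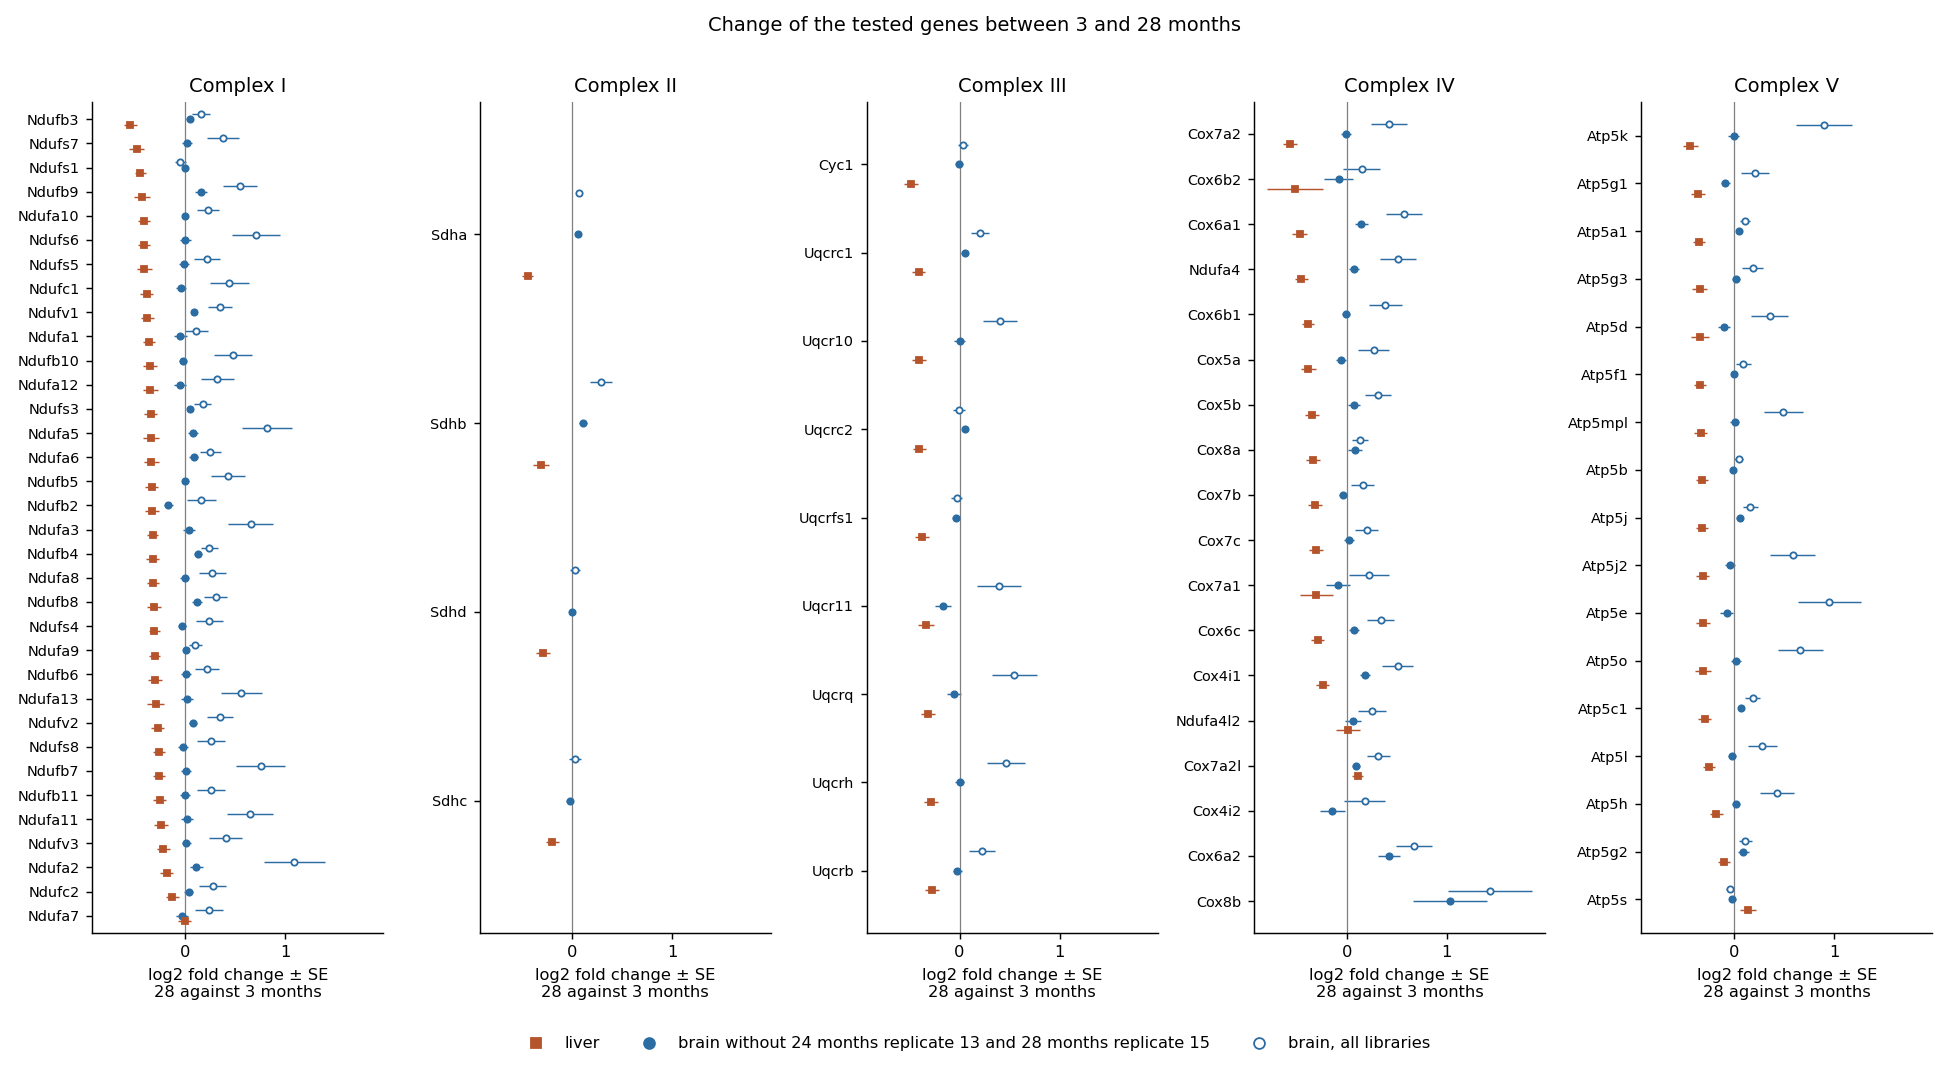
Log2 fold change between 3 and 28 months with its standard error for the genes shown, by complex, in the liver (squares), in the brain without the pair of short-transcript libraries (filled circles) and in all brain libraries (open circles). Among the liver squares only Ndufa4l2, Cox7a2l and Atp5s lie right of 0, and the open brain circles shift to the right of the filled ones.

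The liver change came after 15 months. From 3 to 9 months 0 of 80 genes were called, where 4.69% of all genes were. At an unadjusted p under 0.05 edgeR gave 4 genes, 2 in each direction, and DESeq2 and voom with quality weights both called 0. From 3 to 15 months the only call was Cox6b2, with 7.32% of all genes called and 4.26% lower. Its 15-month levels were 0.0356, 0.161 and 0.512 CPM, and 7 of the 16 libraries held 3 counts or fewer (-0.92, SE 0.30, adjusted p = 0.0472). The call was lost with RLE scaling, with no filter on low counts, with voom (which called another gene), in each prep alone, without each prep, with the replicate block and without the 4 livers of lowest quality weight. At 24 months 58 genes were lower and 0 higher than at 3 months, where 24.0% of all genes were lower and 49.0% were called, with a median of -0.20. Between 15 and 24 months 58 were lower, against 14.4% of all genes and 36.0% called. The median of this step was -0.20, and its count fell to 14 lower genes without prep 2 and to 12 without prep 3, where 5.52% and 7.90% of all genes were lower, while preps 1, 2 and 3 alone called 0, 1 and 6. The only member called higher in that step was Ndufa4l2, a paralog of Ndufa4 (0.39, SE 0.12, adjusted p = 0.00758), where 21.6% of all genes were higher. Between 24 and 28 months 9 of 80 genes fell, a share near that of all genes, of which 9.13% were lower and 15.3% were called. The number lower was 0 without prep 1, 3 without prep 2, 19 without prep 3 and 33 with voom. The 9 genes were Ndufc1, Ndufs6, Ndufs8, Sdha, Uqcr11, Cox7a2, Ndufa4, Atp5g1 and Atp5k, between -0.33 (Cox7a2) and -0.16 (Sdha).

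**Figure D3:**
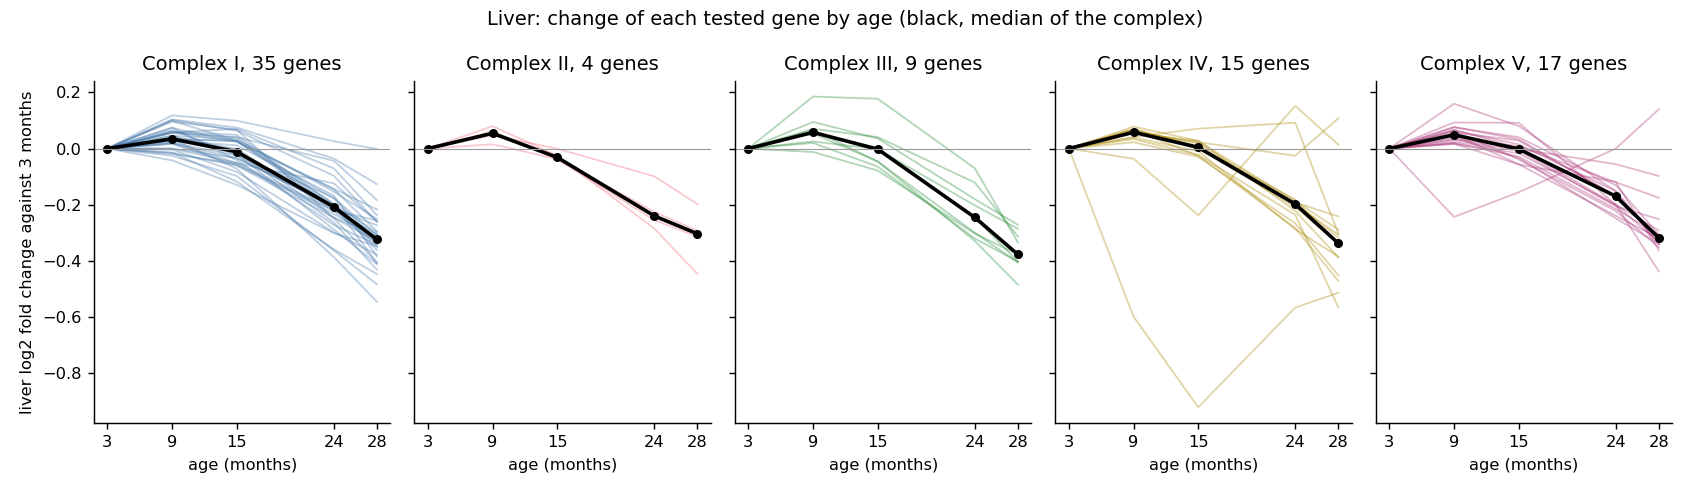
Liver log2 fold change against 3 months of each tested gene (coloured lines) and the median of its complex (black) at 9, 15, 24 and 28 months. The medians stay near 0 up to 15 months and reach between -0.38 and -0.30 at 28 months; the low line of complex IV is the sparsely read Cox6b2.

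The fall to 28 months held within each prep, whereas the timing between 24 and 28 months did not. Fitted alone, preps 1, 2 and 3 gave 53, 31 and 53 genes lower at 28 than at 3 months, with medians of -0.31, -0.36 and -0.32. Of all genes, 18.8%, 7.44% and 19.7% were lower and 39.9%, 15.6% and 42.2% were called in the same fits. Prep 1 also called Atp5s (0.34) and Cox7a2l (0.22) higher, where 21.1% of all genes were higher. In all 3 preps 75 of 79 genes had a negative change. For 24 against 3 months the same preps gave 0, 1 and 55 lower genes, with medians of -0.08, -0.18 and -0.34. Of all genes, 2.06%, 5.61% and 15.1% were lower and 5.83%, 15.5% and 33.4% were called. The difference between 24 and 28 months accordingly had medians of -0.23, -0.18 and 0.01. With 1 prep left out of the common fit, 24 against 3 months gave 61 lower genes without prep 1, 43 without prep 2 and 15 without prep 3, with medians of -0.28, -0.21 and -0.13, where 23.3%, 17.5% and 15.7% of all genes were lower. For 28 against 3 months the same fits gave 73, 71 and 71, where 27.4%, 27.7% and 22.7% of all genes were lower.

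Other features of the tissue moved along with age. Markers of Kupffer cells, the resident liver macrophages, were higher at 28 months in 4 of 4 genes (summed level 249 to 857 CPM at 3 months and 384 to 2979 CPM at 28 months). B lineage markers were higher in 4 of 4 (5.07 to 20.0 against 12.1 to 258 CPM), T lineage markers in 4 of 4 (1.42 to 14.9 against 4.88 to 31.9 CPM) and stellate cell markers in 2 of 3 (159 to 215 against 262 to 387 CPM). Cholangiocyte markers were higher in 2 of 3, and endothelium markers were higher in 1 and lower in 1 of 3. The 1 brown fat marker tested was higher by 2.38 on the log2 scale. Of all genes, 31.9% were higher and 30.0% lower. Of 5 hepatocyte markers 2 were lower and 0 higher, and their sum had a median of 86892 CPM at 3 months and 94625 CPM at 28 months. The part of these cells in the fall was not tested. The 3 livers with the lowest summed level of the 86 genes also stood apart. They were 28 months replicate 14 (6106 CPM, hepatocyte sum 19500 CPM), 24 months replicate 13 (6867 CPM, B lineage sum 501 CPM) and 28 months replicate 9 (6877 CPM, Kupffer cell sum 2979 CPM). Without these and 3-month replicate 16, the 4 livers of lowest voom quality weight, 70 genes were lower at 28 months, with a median of -0.27, where 27.5% of all genes were lower and 57.8% were called. Atp5s (0.24) and Cox7a2l (0.14) were called higher in that fit, as were 30.3% of all genes. With the transcript length slope of each liver as a further term, 72 genes were lower and the same 2 genes were higher, with a median of -0.27, where 30.8% of all genes were lower, 31.9% higher and 62.7% called.

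After age and prep were removed, the members moved together between livers. The median pairwise correlation was 0.81 over 83 livers and 80 genes, a description in which all points share library and depth. Ndufb10 had the highest median correlation with the other members (0.88). Cox6b2 (-0.19), Ndufa4l2 (0.17) and Atp5s (0.21) had the lowest. The summed level correlated with that of the citric acid cycle genes at 0.90, the mitochondrial ribosome genes at 0.83, the mitochondrially encoded genes at 0.74 and the cytosolic ribosomal protein genes at 0.52, and with the transcript length slope of the library at -0.68.

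Promoters were available for 68 of 84 members looked up, as RefSeq windows on GRCm38.p6 from 250 bases before to 50 bases after the start. Motifs of factors known to act on respiratory genes were searched on both strands. NRF1, nuclear respiratory factor 1, was sought by its palindromic consensus and was found in 5 members (7.35%, against 1.47% of 17492 genes). The ETS motif CCGGAAG, bound by the GABP complex among other factors, was in 16 members (23.5% against 12.9%). The YY1 motif AAGATGGC was in 10 (14.7% against 3.57%) and CCAAT was in 30 (44.1% against 42.3%). The liver change from 3 to 28 months had a median of -0.41 in the 5 members with NRF1, 4 of them called lower, and of -0.32 in 61 without, 55 of them called lower. For ETS the medians were -0.31 (16 of 16 called lower) and -0.33 (43 of 50), for YY1 -0.32 (10 of 10) and -0.33 (49 of 56), and for CCAAT -0.32 (25 of 29) and -0.34 (34 of 37). No test of a difference by motif was made. The 250 bases before the start are shown for Ndufb3, which fell most in complex I, for Cox6a1 and Atp5k, which hold NRF1 and fell, and for Atp5g2, which holds it and was not called. The Atp5g2 window lies inside the gene as annotated in GENCODE (chr15:102662864-102672352), before an internal start. Letters in capitals mark matches to the motifs on either strand: NRF1 in Cox6a1, Atp5g2 and Atp5k, CCAAT or its reverse complement ATTGG in Ndufb3 and Cox6a1, and the reverse complement of ETS in Cox6a1. The sequences lie at chr1:58586147-58586396 (plus strand), chr5:115348959-115349208, chr15:102671048-102671297 and chr5:108434400-108434649 (minus strand), in the order of the lines.
Ndufb3: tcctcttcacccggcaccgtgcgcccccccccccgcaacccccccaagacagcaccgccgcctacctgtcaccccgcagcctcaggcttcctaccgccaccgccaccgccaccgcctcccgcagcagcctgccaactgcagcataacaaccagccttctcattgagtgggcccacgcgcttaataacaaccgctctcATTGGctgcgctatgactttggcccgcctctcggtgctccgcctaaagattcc
Cox6a1: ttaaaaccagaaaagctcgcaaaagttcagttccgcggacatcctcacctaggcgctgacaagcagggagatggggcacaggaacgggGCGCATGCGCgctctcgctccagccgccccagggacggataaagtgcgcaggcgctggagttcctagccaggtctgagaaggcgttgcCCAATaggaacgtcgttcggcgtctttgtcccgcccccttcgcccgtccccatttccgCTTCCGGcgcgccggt
Atp5g2: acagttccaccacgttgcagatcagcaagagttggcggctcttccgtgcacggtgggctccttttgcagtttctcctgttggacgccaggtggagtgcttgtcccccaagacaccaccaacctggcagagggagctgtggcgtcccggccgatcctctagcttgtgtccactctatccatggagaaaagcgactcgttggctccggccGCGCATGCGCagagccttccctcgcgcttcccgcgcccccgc
Atp5k: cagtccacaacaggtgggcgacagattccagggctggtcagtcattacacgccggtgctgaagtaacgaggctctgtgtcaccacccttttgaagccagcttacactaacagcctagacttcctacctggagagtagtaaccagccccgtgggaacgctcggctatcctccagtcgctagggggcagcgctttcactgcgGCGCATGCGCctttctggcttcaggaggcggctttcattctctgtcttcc

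The brain gave a different picture once the pair of short-transcript libraries was set aside. Over all 82 brains, 27 of 83 genes were higher and 0 lower at 28 than at 3 months, where 16.3% of all genes were higher and 28.3% called, with a member median of 0.27. Without the pair, 11 were higher and 1 was lower, where 17.5% of all genes were higher, 16.6% lower and 34.1% called, and the median was 0.01. The calls shared by both fits were 10. Leaving out 28 months replicate 15 alone left 3 calls. The direction of the calls also turned in fits that kept the pair and added a term for each library: 4 genes were higher and 39 lower with the ribosomal protein level as a covariate (median -0.10, with 16.5% of all genes lower and 33.7% called), and 4 higher and 33 lower with the transcript length slope (median -0.08, with 16.5% lower and 33.5% called). After age and prep, the summed level over these 82 brains correlated at 0.99 with the ribosomal protein level and at -0.99 with the length slope. The added terms thus nearly repeat the level of the set, and these fits cannot decide its direction.

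Ndufa2, an accessory subunit of complex I, showed the dependence. It was at 34.9, 42.7 and 57.2 CPM in the lowest, median and highest brain at 3 months and at 31.6, 48.6 and 1094 CPM at 28 months. The value of 1094 CPM belonged to replicate 15, and the next highest 28-month brain was at 64.8 CPM. The change was 1.09 (SE 0.30, adjusted p = 0.00412) over all brains and 0.11 (SE 0.06, adjusted p = 0.181) without the pair. Atp5e, the epsilon subunit of ATP synthase, went from 0.95 (SE 0.31) to -0.07 (SE 0.06), and Atp5k from 0.90 (SE 0.28) to -0.00 (SE 0.05). Both calls were lost.

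Transcript length was set against the brain change. Across the 83 genes, the Spearman correlation of the 28-month change with length was -0.47 over all brains and -0.05 without the pair, and it was -0.04 across 80 genes in the liver. These are correlations across genes, which are not independent replicates. The 50 genes with transcripts under 1000 bases had a median brain change of 0.36 over all brains and 0.02 without the pair, and the 33 longer ones had 0.19 and -0.00. The length used was that of the longest annotated principal transcript, and which form of a gene was read was not tested. By this annotated length, the longer transcripts did not all move alike in replicate 15. Atp5g1 (4715 bases) was at 595 CPM there against a median of 114 CPM in the other 80 brains, Ndufb2 (4371 bases) at 203 against 35.6 CPM, Sdhc (3171 bases) at 97.6 against 56.5 CPM and Sdha (2900 bases) at 394 against 363 CPM. Ndufs1, at 2661 bases, was at 45.6 CPM in replicate 15, below all other brains of 28 months. The other brains of that age reached 138 CPM, and its change was -0.05 (SE 0.05) with all brains and 0.00 (SE 0.03) without the pair.

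**Figure D4:**
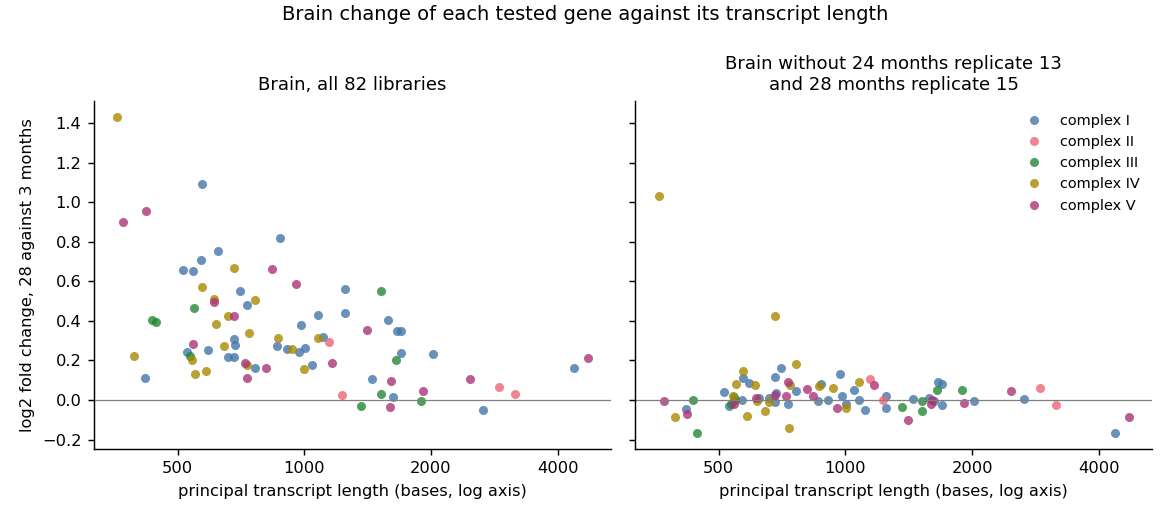
Brain log2 fold change between 3 and 28 months of 83 genes against the length of the principal transcript in bases (log axis), coloured by complex, with all libraries (left) and without the pair of short-transcript libraries (right). Short transcripts lie high on the left, with Spearman correlation -0.47, and the spread collapses around 0 on the right, where it is -0.05.

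The brain changes that were called without the pair were small in the core subunits. The median levels of Sdha were 358 CPM at 3 months and 368 CPM at 28 months, with a range of 322 to 371 CPM at 3 months and a highest remaining value of 381 CPM at 28 months. The ranges overlapped, and Sdha rose by 0.06 (SE 0.02, adjusted p = 0.0153). Cox4i1 was at 326, 366 and 421 CPM at 3 months, and at 28 months it had a median of 409 CPM and a highest value of 514 CPM. It rose by 0.18 (SE 0.05, adjusted p = 0.00127), and by 0.51 (SE 0.15, adjusted p = 0.00815) with the pair included. The further members called higher were Atp5c1 (0.07), Ndufv1 (0.09), Cox7a2l (0.09), Sdhb (0.10), Ndufb8 (0.12), Ndufb4 (0.13) and Ndufb9 (0.16). Ndufb2, an accessory subunit of complex I, was the only gene called lower (-0.17, SE 0.04, adjusted p = 0.00223). Its exons overlap a gene on each strand in the annotation, so its counts are uncertain.

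The remaining brain calls were Cox6a2 and Cox8b, muscle-type isoforms of complex IV. Cox7a1, the muscle form of subunit VIIa, was tested too and was not called without the pair. Cox6a2, the form of subunit VIa known from heart and skeletal muscle, was at 1.95, 2.78 and 3.19 CPM at 3 months. At 28 months its median was 3.42 CPM and its highest value 4.91 CPM without the pair. Over all 18 brains of that age, 13 lay above the highest 3-month brain. It rose by 0.42 (SE 0.11, adjusted p = 0.00154), and by 0.67 (SE 0.18, adjusted p = 0.00341) over all libraries. Cox8b, the muscle-type form of subunit VIII, had a median of 0.219 CPM at 3 months and 0.474 CPM at 28 months without the pair, where the range ran up to 1.00 and 2.42 CPM. The rise was 1.03 (SE 0.37, adjusted p = 0.0235), at levels of a few counts per library. Muscle markers in the brain had a summed level of 5.13 to 8.04 CPM at 3 months and 5.45 to 8.94 CPM at 28 months without the pair (30.2 CPM in replicate 15), and edgeR called 0 of the 2 tested. Their part in these isoforms was not tested.

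By complex, the fit without the pair called 4 genes higher and 1 lower of 35 in complex I, 2 higher of 4 in complex II, 0 of 9 in complex III, 4 higher of 18 in complex IV and 1 higher of 17 in complex V. In the same fit 17.5% of all genes were higher, 16.6% lower and 34.1% called. Taken over the whole set, neither direction exceeded its share of all genes. In complex III, Cyc1 (-0.01, SE 0.04) and Uqcrfs1 (-0.04, SE 0.04) were not called. The summed level of the 86 genes had medians of 8906, 9034, 9105, 8899 and 9103 CPM at 3, 9, 15, 24 and 28 months without the pair, all within the range of the 3-month brains.

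Earlier ages gave few brain calls in the main fit. From 3 to 24 months 1 gene was called, Cox6a2, higher by 0.59 (adjusted p = 0.0226), where 6.19% of all genes were higher and 10.1% were called. DESeq2 called 2 genes and voom 7. The ribosomal covariate and the length slope called more genes than the main fit, most of them lower, as given in the last section. Without the pair Cox6a2 (0.40) and Cox4i1 (0.13) were called higher and Ndufb2 (-0.12) lower, where 9.40% of all genes were higher, 7.68% lower and 17.1% called. From 3 to 15 months 0 genes were called by edgeR and DESeq2, 1 by voom with quality weights and 1 at an unadjusted p under 0.05, where 0.871% of all genes were called. Cox6a2 was called at 15 months without the pair (0.41), where 1.17% of all genes were higher and 1.87% called. From 3 to 9 months 0 were called by all 3 tools and 0 at an unadjusted p under 0.05 by edgeR, where 0.315% of all genes were called. Without the pair edgeR called 0, with 1 at an unadjusted p under 0.05 (0.942% of all genes called). Between 15 and 24 months edgeR called 0, with 0 at an unadjusted p under 0.05 (0.732% of all genes), and voom called 1. Without the pair edgeR called 0 in this step, with 2 at an unadjusted p under 0.05 (1.23% of all genes called). Between 24 and 28 months edgeR called 0, with 10 at an unadjusted p under 0.05 (1.09% of all genes), and voom called 1. Without the pair it called 0, with 3 at an unadjusted p under 0.05 (3.58% of all genes called).

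Within preps, the brain gave 0 higher and 1 lower gene at 28 against 3 months in prep 1, 0 in prep 2 and 3 higher in prep 3, where 10.6%, 1.96% and 6.36% of all genes were called. The medians were -0.06, 0.06 and 0.76. These values include the pair, since prep 3 held 28 months replicate 15 and prep 2 held 24 months replicate 13. Without its library of the pair, prep 2 gave 0 calls (median 0.05, with 4.33% of all genes called) and prep 3 gave 4 higher (median 0.06, with 9.01% of all genes higher and 16.4% called). After age and prep were removed, the median pairwise correlation of the members was 0.90 over all 82 brains and 0.57 over 80. Over those 80, Uqcr10 had the highest median correlation with the other members (0.80), and Ndufs1 (-0.29) and Sdha (-0.03), both with long transcripts, the lowest. Over the 80 brains, the summed level correlated at -0.91 with the length slope of the library, at 0.97 with the mitochondrial ribosome genes, at 0.88 with the cytosolic ribosomal protein genes, at 0.54 with the citric acid cycle genes and at 0.04 with the mitochondrially encoded genes.

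The change with age differed between the tissues. In a fit over both tissues, the interaction of tissue and age (the liver change minus the brain change from 3 to 28 months) was called for 73 of 80 genes, 72 of them lower in the liver, where 49.2% of all genes were called and 21.9% were lower. The median difference was -0.56. Without the pair of brain libraries 65 were lower and 0 higher, with a median of -0.30, where 21.6% of all genes were lower and 50.1% were called. With total counts in place of TMM 71 were lower and 1 higher, where 16.5% of all genes were lower and 31.9% higher. With the mouse as a block, which pairs the brain and liver of a mouse and uses the 3- and 28-month libraries alone, 43 were lower and 0 higher, with a median of -0.43, where 16.8% of all genes were lower and 37.2% were called. That fit includes 28 months replicate 15. Sdha had the smallest p: its change differed by -0.47 (SE 0.07, adjusted p = 7.9e-10), by -0.47 without the pair and by -0.51 with the mouse block. Ndufb3 differed by -0.67 (SE 0.11, adjusted p = 1.83e-07), by -0.56 without the pair. Atp5a1 differed by -0.42 (SE 0.08, adjusted p = 2.58e-06) and Cyc1 by -0.48 (SE 0.09, adjusted p = 3.65e-06), and by -0.37 and -0.45 without the pair. The only gene called with a higher change in the liver was Atp5s (0.22, adjusted p = 0.0454), where 27.2% of all genes were higher, a call that was lost without the pair and with the mouse block.

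In young mice the liver held the set at a higher level than the brain did. At 3 months, 73 of 80 genes were higher and 2 lower in the liver, where 42.6% of all genes were higher, 45.9% lower and 88.6% called, with a median difference of 1.01. The size of this difference depended on the scaling of the tissues against each other. With total counts in place of TMM, 61 genes were higher and 6 lower, with a median of 0.56, where 32.5% of all genes were higher, 56.1% lower and 88.6% called. The median over all genes moved too, from -0.06 to -0.50. In 5 genes the sign turned from higher to lower, among them Ndufb2, which was then called lower, and the call of Cox4i1, higher in the liver by 0.55 with TMM, was lost (0.11). Without the pair of brain libraries, which belong to older ages but enter the common fit, 73 were higher and 5 lower, where 43.1% of all genes were higher, 46.7% lower and 89.9% called. The higher genes were 32 of 35 in complex I, 4 of 4 in complex II, 9 of 9 in complex III, 12 of 15 in complex IV and 16 of 17 in complex V. The largest differences were in Uqcrq, a small subunit of complex III, and Sdhd. Sdhd was at 63.4, 76.0 and 88.5 CPM in the brain and at 267, 364 and 421 CPM in the liver, on a scale common to both tissues, so the ranges did not overlap. The difference was 2.23 (SE 0.07, adjusted p = 3.55e-65), and that of Uqcrq was 2.37 (SE 0.20, adjusted p = 1.9e-23). This fit does not pair the tissues of a mouse. With the mouse as a block in edgeR, Sdhd differed by 2.25 (adjusted p = 4.69e-25) and Uqcrq by 2.23 (adjusted p = 1.38e-14). CPM on the common scale is not to be set against CPM on a tissue's own scale, since the median of Sdha in the young liver was 780 CPM on the first and 513 CPM on the second. Neither scale gives transcripts per cell.

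Several isoforms of complex IV were read in the brain and hardly in the liver. Cox6b2, the form of subunit VIb known from testis, was at 1.41, 2.33 and 4.94 CPM in the young brain and at 0.0964, 0.475 and 1.38 CPM in the young liver. The ranges did not overlap, and the difference was -2.20 (SE 0.28, adjusted p = 1.53e-12). Atp5s was the other gene lower in the liver (-0.75, SE 0.08). Cox6a2 was at 1.93 to 3.20 CPM in the young brain and held 3 counts or fewer in 69 of 83 livers, and Cox4i2, the form of subunit IV known from lung, was at 0.562 to 1.21 CPM in the young brain and held 3 counts or fewer in 62 of 83 livers. Cox8b held 3 counts or fewer in 77 of 83 livers and in 1 of 82 brains. Cox7b2 had no count in any liver and 3 counts or fewer in 37 of 82 brains. Cox8c had 0 counts in the brain and 1 count over all livers, levels at which no difference was detectable. Cox7a1, the muscle form of subunit VIIa, was low in both tissues and higher in the liver (0.93, SE 0.22, adjusted p = 4.44e-05). For Cox8a (-0.16, SE 0.09, adjusted p = 0.0798) and Ndufa4l2 (-0.19, SE 0.16, adjusted p = 0.238) the tissues' ranges overlapped and the difference was not called, although both were called lower in the liver without the pair of brain libraries (-0.18 and -0.26) and with total counts in place of TMM (-0.60 and -0.63).

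**Figure D5:**
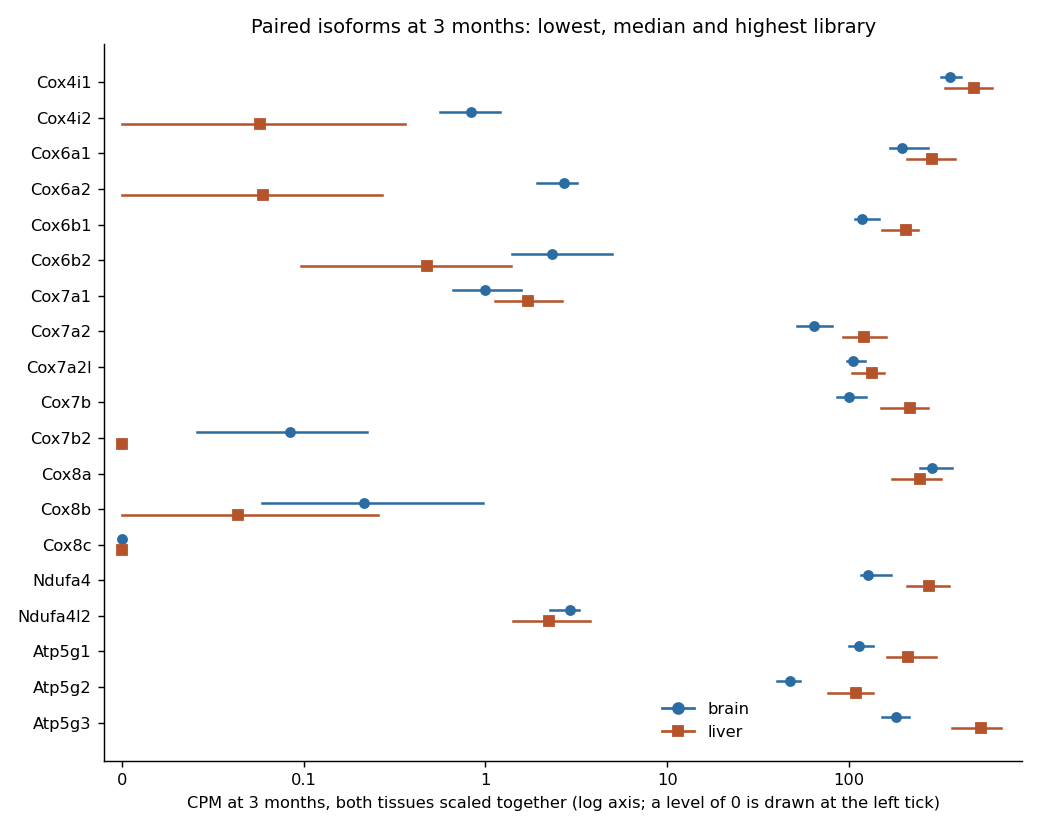
Level at 3 months (CPM scaled over both tissues, log axis, with 0 drawn at the left tick) of the complex IV isoforms and the c-subunit genes of ATP synthase in 15 brains and 16 livers. Points are medians and lines run from the lowest to the highest library; Cox4i2, Cox6a2, Cox6b2, Cox7b2 and Cox8b lie further right in the brain than in the liver.

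The rest of the pathway was set beside the 86 genes, with 30.0% of all genes lower and 31.9% higher in the liver and 16.6% lower and 17.5% higher in the brain without the pair. Of the 13 mitochondrially encoded subunits, 8 were lower and 1 was higher in the liver at 28 months, with a median of -0.27, and their summed level went from 42831, 52153 and 59750 CPM to 25518, 41480 and 50441 CPM. All 18 old livers lay below the young median. Among them mt-Cytb, the cytochrome b of complex III, fell by 0.51 (SE 0.08) and mt-Co1, the catalytic subunit of complex IV, by 0.27 (SE 0.07) on the log2 scale. Enrichment for polyadenylated RNA captures these transcripts only in part. In the brain without the pair, 5 of 13 were higher and 0 lower (median 0.22), mt-Co1 by 0.22.

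Assembly factors, which build the complexes without staying in them, were lower for 37 and higher for 1 of 46 in the old liver, with a median of -0.30. The copper chaperone Sco2 had the largest change (-0.96, SE 0.13), and Nubpl was the gene called higher (0.16, SE 0.06). Citric acid cycle genes were lower for 15 and higher for 1 of 18 (median -0.34). Pdhb of pyruvate dehydrogenase fell by 0.70 (SE 0.07) and citrate synthase, Cs, by 0.56 (SE 0.07), and the NADP-dependent Idh2 rose by 0.28 (SE 0.07). Carriers and makers of mobile electron carriers were lower for 16 and higher for 1 of 20 (median -0.25), and the higher one was the ADP/ATP carrier Slc25a4 (1.01, SE 0.14). Mitochondrial ribosome genes were lower for 68 and higher for 1 of 77 (median -0.31). Cytosolic ribosomal protein genes went the other way, with 36 higher and 6 lower of 79 (median 0.14).

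Of the regulators of these genes, 3 of 12 were lower and 1 was higher in the old liver, where 30.0% of all genes were lower and 31.9% higher, so that neither share exceeded that of all genes. Polrmt, the mitochondrial RNA polymerase, fell by 0.28 (SE 0.05), and the transcription factors Tfb1m and Tfb2m by 0.24 (SE 0.08) and 0.22 (SE 0.07). Ppargc1a, the coactivator PGC-1alpha, rose by 1.07 (SE 0.18, adjusted p = 6.12e-07), from 5.74, 8.34 and 10.7 CPM to 6.00, 13.5 and 37.2 CPM in the lowest, median and highest liver. Old and young livers overlapped at the low end. Nrf1 (-0.08, SE 0.06) and Tfam (-0.09, SE 0.05) were not called. In the brain without the pair, assembly factors were higher for 8 and lower for 13 of 46, citric acid cycle genes for 2 and 3 of 18, and regulators for 1 and 4 of 13, where 17.5% of all genes were higher and 16.6% lower.

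Several counts are uncertain. The exons of 22 of the members, among them Ndufa2, Ndufs1, Cox4i1, Cox6a2, Uqcrb and Atp5a1, overlap a gene on the opposite strand in GENCODE M21, and whether the counting used strand was not given in the sources used here. Ndufb2, Ndufb8 and Ndufb9 share exon bases with another gene on their own strand, as do both Atp5o rows, which overlap each other.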

How the data were processed

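The authors deposited raw counts per gene for each tissue. The submitters' processing notes name cutadapt 2.8, HISAT2 2.1.0, SAMtools 1.9, featureCounts and Subread 2.0.1 with GRCm38.p6 (mm10). The annotation release and strand setting of the counting were not given in the sources used here. Symbols were found for 55144 of 55471 identifiers, and lengths and overlaps came from GENCODE release 21. A gene's length was that of its longest transcript marked principal, or of its longest transcript where none was marked. No column was left unused.

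Counts were filtered with filterByExpr by age, scaled by TMM and tested in each tissue with edgeR 4.0.16 (limma 3.58.1, R 4.3.3) on age and prep, two-sided, with p-values adjusted by Benjamini-Hochberg over all genes of the tissue. Each SE was derived from the fold change and the F statistic. Tissues were compared in a common fit with its own TMM scale and prep within tissue. The scripts were tested on simulated data. Libraries with 3 counts or fewer of a gene were taken as at the floor, which covers counting error only. The named genes were the highest and lowest change of each complex and tissue at a mean of 10 CPM or more, central subunits, isoforms, the 4 smallest interaction p-values, and Ndufa2 and Cox4i1. A gene that this rule also names is counted in the sums and totals but is not reported here by name. Members, lists and tests were chosen with earlier results of these data known, and other genes named in the text were chosen after their values were seen. Alternatives were DESeq2 1.42.0, voom with quality weights, DESeq2-type size factors in edgeR (RLE), no filter, each prep alone, a replicate block, a ribosomal covariate and leaving out libraries. The mouse block paired tissues because the labels give brain and liver of a mouse the same number. The median correlation of their deviations was 0.04 over 82 mice.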

Additional observations from a re-analysis of the deposited data

Results flagged for a closer look

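The change from 3 to 28 months differed between the liver and the brain by the test of the interaction for 73 of the 80 members, where 49.2% of all genes were called, and for 43 with the mouse as a block, where 37.2% were. Among the 4 with the smallest p this liver minus brain difference was -0.47 for Sdha, -0.67 for Ndufb3, -0.42 for Atp5a1 and -0.48 for Cyc1.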

How the results depend on the processing

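In the liver, the count of members called from 3 to 28 months lay between 71 (without 28 months replicate 9) and 73 when each 3- or 28-month library was left out in turn, and was 31 in prep 2 alone. The single call from 3 to 15 months became 0 with RLE, without the filter, in each prep alone, without each prep, with the replicate block and without the 4 livers of low weight, and 2 with the length slope as a term, which also gave 1 call from 3 to 9 months. From 3 to 24 months, preps 1 and 2 gave 0 and 1 calls, and the fit without prep 3 gave 15. From 15 to 24 months, the preps gave 0, 1 and 6, and the fits without preps 2 and 3 gave 15 and 13. From 24 to 28 months, preps 2 and 3 gave 0, the fits without preps 1, 2 and 3 gave 0, 4 and 19, voom 33 and the ribosomal covariate 34.

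In the brain, the 27 calls from 3 to 28 months became 11 with DESeq2, 16 without the filter, 1, 0 and 3 in the preps alone, 0 and 4 in preps 2 and 3 without their library of the pair, 8 with the replicate block, 43 with the ribosomal covariate (39 lower), 12 without the pair of libraries and between 3 (without 28 months replicate 15) and 39 when a library was left out. From 3 to 24 months the single call became 2 with DESeq2, 7 with voom, 0 in each prep alone and in preps 2 and 3 without their library of the pair, 20 with the ribosomal covariate (19 lower), 17 with the length slope (16 lower), 3 without the pair and 7 without 28 months replicate 15. From 3 to 15 months voom and the fit without the pair gave 1. From 15 to 24 months voom, the ribosomal covariate and the length slope gave 1, and from 24 to 28 months voom gave 1. The length slope as a term gave 37 calls from 3 to 28 months, 33 of them lower.

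Of the named genes' values under the alternatives, 129 in the brain and 13 in the liver took the opposite sign. Called in the reported fit or under the alternative were 35 of them, all brain changes from 3 to 28 months: with voom Atp5e -0.050, and in prep 3 without its library Atp5e -0.00057. In prep 1 alone they were Atp5e -0.23, Atp5k -0.12, Ndufa2 -0.010 and Ndufa4 -0.0033, and without the pair Atp5e -0.073 and Atp5k -0.0042. With the ribosomal covariate they were Atp5e -0.27, Atp5g1 -0.19, Atp5g3 -0.077, Atp5k -0.16, Cox5a -0.17, Cox6b1 -0.12, Cox7a2 -0.14, Cox7a2l -0.0049, Cox7b -0.13, Ndufa2 -0.079, Ndufa4 -0.055, Ndufa7 -0.15, Sdhc -0.090 and Uqcrq -0.22. With the length slope they were Atp5e -0.24, Atp5g1 -0.18, Atp5g3 -0.066, Atp5k -0.13, Cox5a -0.16, Cox6b1 -0.10, Cox7a2 -0.12, Cox7b -0.11, Ndufa2 -0.049, Ndufa4 -0.034, Ndufa7 -0.14, Sdhc -0.084 and Uqcrq -0.20. The cause was not tested.

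The mouse block on the tissue interaction gave 43 calls, fewer than the 73 reported, and used fewer libraries. Across ages, replicate numbers did not pair the samples: the median correlation of same-numbered libraries was 0.01 over 157 brain pairs and 0.00 over 161 liver pairs, so the replicate block on age shares only a number. It gave 73 liver calls from 3 to 28 months. The length slope covariate, total counts without TMM, and the fits without the 4 livers, without a prep and of preps 2 and 3 without a library were chosen after seeing the data. Of the named genes' values under the alternatives, 447 of the liver and 293 of the brain kept both their direction and their side of the threshold. Low counts limit Cox6b2, Cox7a1, Cox8b, Cox7b2 and Cox8c.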
